A study of Mus musculus with 8 samples.

Results

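The aquaporins were examined as a family of 7 genes, *Aqp1*, *Aqp3*, *Aqp4*, *Aqp7*, *Aqp8*, *Aqp9* and *Aqp11*, whose m6A peaks were read by gene name from the deposited peak lists of mouse liver. The family was chosen by the m6A enrichment of *Aqp9*, known to hold one of the strongest decreases of the series in *Wtap*-HKO livers, so that its values are given as a description and are tested against nothing. Of 34820 peaks in the lists of the 2 genotypes, 12 lay in aquaporin genes, 6 in each genotype. Joined where they shared at least 1 exonic base, they made up 8 of 21673 sites. *Aqp1*, *Aqp4*, *Aqp8*, *Aqp9* and *Aqp11* had at least 1 peak. *Aqp3* and *Aqp7* had 0 peaks in either genotype.

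m6ARIP-seq sequences mRNA fragments immunoprecipitated with an antibody to N6-methyladenosine (IP), and the starting fragments as the input. The controls were *Wtap* flox/flox mice of the C57BL/6 strain (C57BL/6J in the study's methods), which carry the floxed *Wtap* alleles without Cre. The *Wtap*-HKO mice carry the same floxed alleles and *Alb*-Cre, which is driven by the albumin promoter and deletes *Wtap* in hepatocytes, while the other cells of the liver keep the gene. All mice were 8 weeks old and on normal chow, and each genotype had 2 IP and 2 input libraries, with each replicate pooled from 5 mice. The deposited lists combine the replicates of a genotype. No SD, no test across replicates and no library depth can therefore be given, and the genotypes are compared below without an estimate of replicate error. The fold enrichment is the ratio of IP over input within a peak. It is a level relative to the transcript in the input, and not the abundance of the transcript. As the livers were sequenced in bulk, fewer cells of a type and less methylated RNA per cell cannot be told apart.

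Aquaporins are membrane channels for water, and the members called aquaglyceroporins, AQP3, AQP7 and AQP9 among them, also pass glycerol. AQP9 lies in the sinusoidal membrane of hepatocytes, where it takes up glycerol that adipose tissue releases during lipolysis, for use in gluconeogenesis and triacylglycerol synthesis. WTAP is the regulatory subunit of the complex that writes m6A on nascent mRNA with METTL3 and METTL14 and that prefers adenosines in a GGAC context, often near the stop codon and in the 3´ part of the transcript.

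The sequences that lie under a peak at the start of an aquaporin gene are shown first, because peaks of this kind were listed for *Aqp8* and *Aqp9* in *Wtap*-HKO livers and not in *Wtap* flox/flox livers. Each run holds the GGAC that lies inside both the RefSeq promoter window (250 bases before to 50 bases after a transcription start, GRCm38.p6) and the *Wtap*-HKO peak, read 5´ to 3´ on the strand of the gene. GGAC is in capitals.
*Aqp9* (chr9:71163249-71163278, minus strand): cagttcctaattaGGACaggctctctgaca
*Aqp8* (chr7:123462288-123462317, plus strand): tttattgctttctGGACacctttggtgaat
The GGAC of *Aqp9* began 24 bases after the RefSeq start at position 71163289, and that of *Aqp8* 7 bases after the start at 123462294. In *Aqp9* the peak and the promoter window shared 156 bases, in stretches of 50 and 106 bases, which held 1 GGAC on the strand of the gene and 0 on the other strand. In *Aqp8* they shared 53 bases, with 1 GGAC on the strand of the gene and 2 on the other. Of all 32851 promoter windows, 65.6% held GGAC on the strand of the gene, and 18.9% held it within the final 50 bases. A match of 4 letters is a description of the sequence and says nothing about whether the adenosine was methylated. The paper reports the GGACU motif for *Wtap* flox/flox peaks but not for *Wtap*-HKO peaks. In both runs above an A follows GGAC.

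*Aqp9* (ENSMUSG00000032204, GRCm38 chromosome 9, RefSeq span 71110659 to 71167849, minus strand) showed 2 sites with different values in the 2 genotypes. Near the 3´ end of the gene, *Wtap* flox/flox livers had a peak from 71111732 to 71122792, enriched 11.2-fold over input. It consisted of an exonic block of 654 nt and a block of 2 nt across an exon junction. *Wtap*-HKO livers had a peak from 71111881 to 71112268 with a fold enrichment of 3.84. The value in *Wtap*-HKO was 2.92-fold lower, a log2 ratio of -1.54. The false discovery rate of both peaks was too small for the number format of the lists, as it was for 4.16% of all *Wtap* flox/flox peaks and 3.44% of all *Wtap*-HKO peaks.

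The 3´ peak of *Aqp9* was also shorter in *Wtap*-HKO livers. It covered 388 exonic nt, which all lay inside the 656 exonic nt of the *Wtap* flox/flox peak and made up 59.1% of them. The uncovered part lay on both sides, with 149 nt towards the 3´ end of the gene and 117 nt on the 5´ side of the same block, besides the block of 2 nt. Ranked by fold enrichment among all peaks of its list, the 3´ peak stood at the 80.0th percentile for *Wtap* flox/flox and at the 27.6th percentile for *Wtap*-HKO, a difference of -52.4 percentile points. The lists differ in length (15635 and 19185 peaks) and in the sites they hold, and ranked only among peaks of sites in both lists the difference was -49.8. The ranks come from the same values as the log2 ratio and are no further support for it.

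The other site of *Aqp9* lay at the 5´ side of the gene, at a genomic distance of 50711 nt from the 3´ site's block of 654 nt. *Wtap*-HKO livers had a peak there from 71163097 to 71163517, with blocks of 193 and 106 nt, a fold enrichment of 6.34 and a false discovery rate of 1.0e-155. The *Wtap* flox/flox list held 0 peaks at this site, and thus no value to compare. The block of 193 nt ended at 71163289, the base of the RefSeq start named above, and the block of 106 nt lay before that start. The RefSeq span of *Aqp9* opens 4332 nt before this peak, so that the peak falls inside the gene by the outermost annotated start and at the start by the one named here. Within *Wtap*-HKO livers, the fold enrichment of the 5´ site was 1.65 times that of the 3´ site, whereas in *Wtap* flox/flox livers only the 3´ site was listed.

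**Figure D1:**
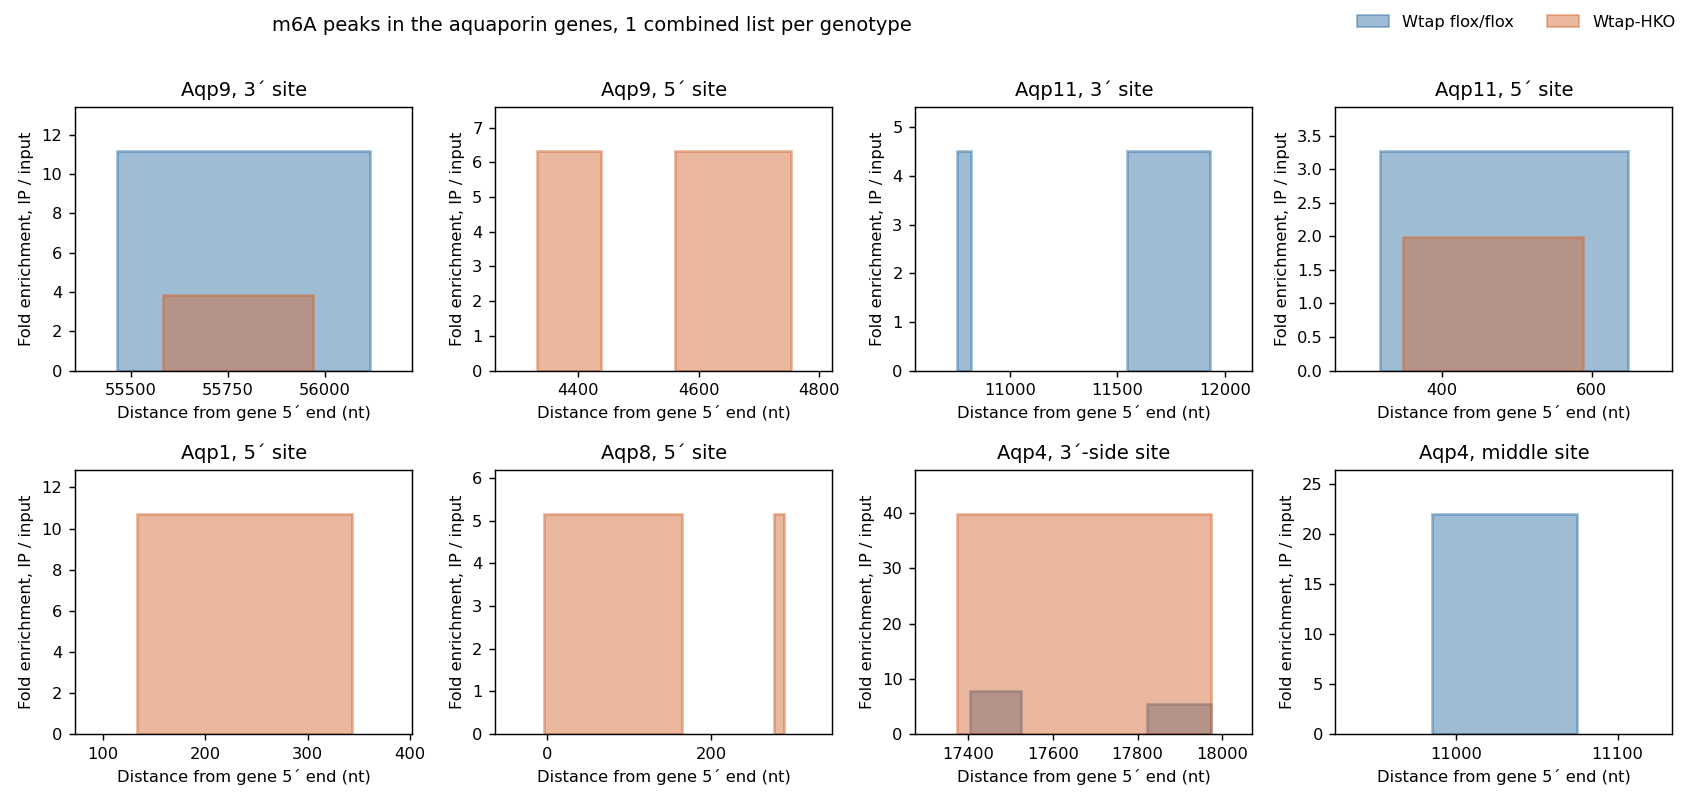
Fold enrichment (IP over input, linear axis from 0) of each aquaporin peak against its distance from the 5´ end of the RefSeq gene span in nt, 1 panel per site. Boxes are the exonic blocks of the combined peaks of Wtap flox/flox (blue) and Wtap-HKO (orange), the vertical scales differ between panels, and the block of 2 nt of Aqp9 is left out. The Aqp9 3´ peak is lower (11.2 against 3.84) and shorter in Wtap-HKO, and the 5´ sites of Aqp9, Aqp1 and Aqp8 have a Wtap-HKO peak only.

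To place the 3´ site of *Aqp9* among all others, the same rule was applied to every gene. Both genotypes had a peak at 11822 sites (54.5% of all sites), with a median log2 ratio of 0.00 (interquartile range -0.60 to 0.66). A fold enrichment more than 2-fold lower in *Wtap*-HKO was found at 12.5% of these sites and one more than 2-fold higher at 14.7%. A log2 ratio as low as that of *Aqp9* or lower was found at 466 of the 11822 sites, itself included, or 3.94% of them. The share was larger among sites with a high value in *Wtap* flox/flox, a value that also enters the ratio. Among the 2670 sites with a *Wtap* flox/flox fold enrichment of at least that of *Aqp9*, 26.5% were more than 2-fold lower, and 337 (12.6%) had a log2 ratio as low as that of *Aqp9* or lower. In this order *Aqp9* stood between *Klhl11* (29.0 in *Wtap* flox/flox, 9.94 in *Wtap*-HKO, log2 ratio -1.54) and a site of the gene ENSMUSG00000111053, which has no symbol in the lists (15.8 and 5.42, log2 ratio -1.54). The next on either side were *2210408I21Rik* (21.1 and 7.23) and ENSMUSG00000090222 (22.8 and 7.83). Of these, *Klhl11* and *2210408I21Rik* could be placed on their RefSeq spans, and neither lay in the final 10% of the gene, whereas the *Aqp9* site lay at 97.5% of the way from its 5´ end.

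**Figure D2:**
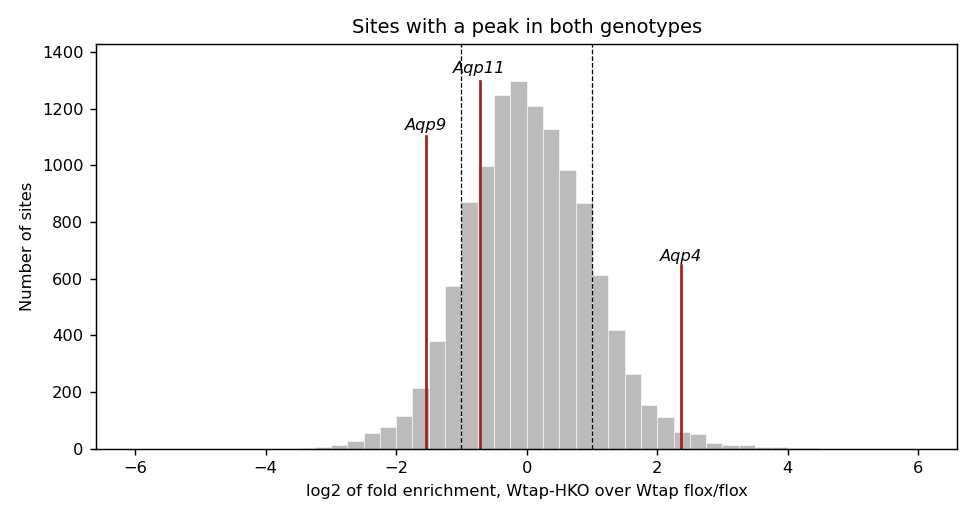
Number of sites (vertical axis) by the log2 ratio of fold enrichment, Wtap-HKO over Wtap flox/flox (horizontal axis, bins of 0.25), for the 11822 sites with a peak in both genotypes. Red lines mark the 3 aquaporin sites with a value in both genotypes and dashed lines a 2-fold change, and Aqp9 (-1.54) and Aqp4 (2.36) lie outside the dashed lines on opposite sides.

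*Aqp11* encodes an aquaporin of intracellular membranes, among them the endoplasmic reticulum. The gene (ENSMUSG00000042797, chromosome 7, RefSeq span 97726379 to 97738247, minus strand) had 2 peaks in *Wtap* flox/flox livers and 1 in *Wtap*-HKO livers. The 3´ peak, from 97726315 to 97727490 with blocks of 390 and 61 nt, was enriched 4.52-fold in *Wtap* flox/flox livers (false discovery rate 2.0e-86). The *Wtap*-HKO list held 0 peaks at this site. Its midpoint lay at 98.6% of the gene span, beside 97.5% for the *Aqp9* 3´ site. Such a position was common, since the final 10% of the span held 50.1% of all placed sites in the *Wtap* flox/flox list only and 41.2% of those in both lists.

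The 5´ peak of *Aqp11* was present in both genotypes. The enrichment was 3.28-fold over 331 nt in *Wtap* flox/flox (97737599 to 97737929, false discovery rate 7.9e-73) and 1.99-fold over 241 nt in *Wtap*-HKO (97737659 to 97737899, false discovery rate 1.1e-09). The log2 ratio was -0.72, inside the 2-fold line, and the peak stood at the 23.2nd percentile of the *Wtap* flox/flox list and at the 3.97th of the *Wtap*-HKO list, a difference of -19.2 points, or of -14.3 among peaks of sites in both lists. In contrast to *Aqp9*, both sites of *Aqp11* thus had their higher value, or their only value, in *Wtap* flox/flox livers. Of the 1736 sites that had a peak in both genotypes and a midpoint in the first 10% of the gene span, as this one did, 17.6% were lower in *Wtap*-HKO by any amount (49.8% of all sites in both lists), and their median log2 ratio was 0.76. Of the 4404 such sites in the final 10% of the span, 60.1% were lower, with a median of -0.20.

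*Aqp8* encodes a water channel of the bile canaliculus and of vesicles inside the hepatocyte. The gene (ENSMUSG00000030762, chromosome 7, RefSeq span 123462294 to 123468003, plus strand) had 1 peak, in *Wtap*-HKO livers only, from 123462291 to 123462582 with blocks of 168 and 12 nt. Its fold enrichment was 5.15 (false discovery rate 1.0e-71), at the 42.5th percentile of the list. The peak began 3 nt before the RefSeq start of the gene, at the sequence shown above.

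*Aqp1* encodes the water channel of red cells, endothelium and bile duct cells. The gene (ENSMUSG00000004655, chromosome 6, RefSeq span 55336299 to 55348555, plus strand) likewise had 1 peak, in *Wtap*-HKO livers only, from 55336432 to 55336641. This peak of 210 nt began 133 nt inside the gene and was enriched 10.7-fold (false discovery rate 1.0e-178, 73.9th percentile), the highest of the 3 peaks listed at a 5´ end in *Wtap*-HKO alone. Markers of the cell types that carry AQP1 were checked by the number of genes with a peak, since the lists hold no transcript levels. Of 6 endothelial markers, 5 had a peak in each genotype (*Pecam1*, *Kdr*, *Cdh5*, *Lyve1* and *Clec4g*). Of 6 bile duct markers, 2 had a peak in *Wtap* flox/flox (*Sox9* and *Spp1*) and 3 in *Wtap*-HKO, where *Epcam* joined them. Over all genes, 9020 had a peak in the *Wtap* flox/flox list and 10634 in the *Wtap*-HKO list. Of 4 erythroid markers, *Hbb-bs* had a peak in each genotype. Markers of Kupffer, stellate and fat cells had a peak in *Wtap* flox/flox for 2 of 5, 4 of 5 and 0 of 5 genes, and in *Wtap*-HKO for 4, 4 and 2. The part of these cells in the *Aqp1* peak and in the other aquaporin values was not tested. The hepatocyte markers had a peak for 5 of 8 genes in each genotype, *Alb*, *Apoa1*, *Apob* and *Tat* in both, *Cyp2e1* in *Wtap* flox/flox and *Ttr* in *Wtap*-HKO.

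The 3 sites listed in *Wtap*-HKO only, those of *Aqp9*, *Aqp8* and *Aqp1*, had midpoints at 8.05%, 1.52% and 1.94% of the gene span. Over all genes, 31.1% of the sites were in the *Wtap*-HKO list only and 14.3% in the *Wtap* flox/flox list only. Of the 5920 sites in the *Wtap*-HKO list only that could be placed on a gene, 36.8% were centred in the first 10% of the span, beside 8.15% of the 2638 sites in the *Wtap* flox/flox list only. Conversely, 52.7% of all sites placed in the first 10% of the span were in the *Wtap*-HKO list only. A site of this kind was thus common in these livers, and nothing particular to aquaporins can be read from the 3 sites.

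*Aqp4*, the main water channel of astrocytes in the brain, was the only aquaporin gene with a value in both genotypes that was higher in *Wtap*-HKO. The gene (ENSMUSG00000024411, chromosome 18, RefSeq span 15389394 to 15410982, minus strand) had 3 peaks in *Wtap* flox/flox livers and 1 in *Wtap*-HKO livers. At 81.9% of the gene span, *Wtap* flox/flox had a peak of 151 nt with a fold enrichment of 5.42 (15393010 to 15393160) and one of 120 nt with 7.76 (15393459 to 15393578). Both lay inside a single *Wtap*-HKO peak of 599 nt with a fold enrichment of 39.8 (15393010 to 15393608). Against the higher of the *Wtap* flox/flox peaks the log2 ratio was 2.36, and 1.31% of the 11822 sites had a ratio as high or higher. A further peak, from 15399908 to 15399997 with a fold enrichment of 22.0, was listed in *Wtap* flox/flox only.

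These *Aqp4* values rest on weaker evidence of enrichment than those of *Aqp9*. The false discovery rates were 1.7e-06, 3.1e-09 and 1.4e-05 for *Wtap* flox/flox and 1.3e-11 for *Wtap*-HKO, so that the *Aqp4* peaks stood between the 7.28th and the 29.7th percentile of their lists by strength of the false discovery rate. By fold enrichment the peaks of 22.0 and 39.8 stood at the 94.1st and the 96.5th percentile. Among the 684 *Wtap*-HKO peaks enriched at least 39.8-fold, the median log10 false discovery rate was -33.0, beside -10.9 for *Aqp4*. Among the 977 *Wtap* flox/flox peaks enriched at least 22.0-fold the median was only -11.2, beside -4.85 for *Aqp4*. The medians of all peaks were -21.9 for *Wtap* flox/flox and -22.4 for *Wtap*-HKO, close to the limit used next. At a false discovery rate under 1e-20, a limit chosen after the data had been seen, all *Aqp4* peaks and the *Wtap*-HKO peak of *Aqp11* were lost, while all peaks of *Aqp9*, *Aqp8* and *Aqp1* passed.

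**Figure D3:**
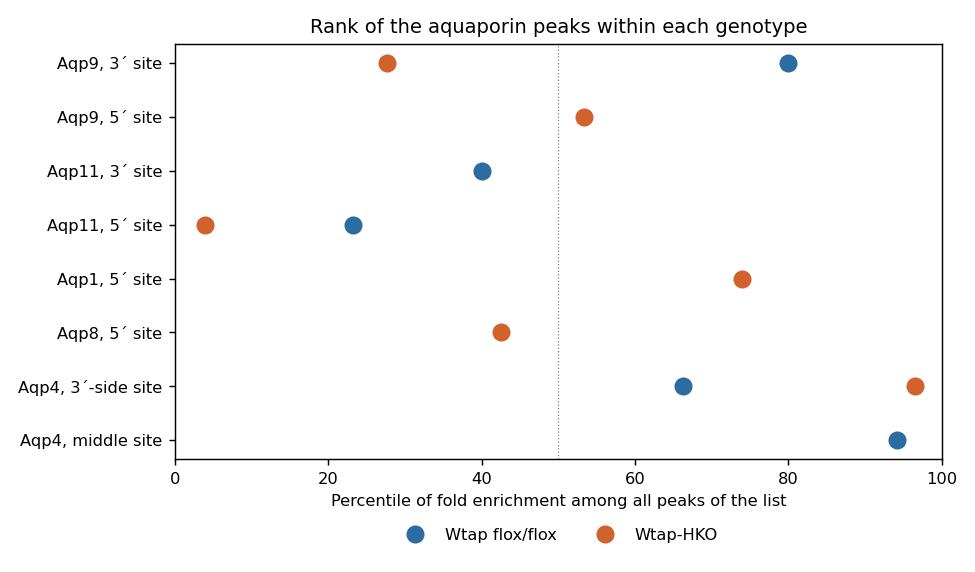
Percentile of fold enrichment among all peaks of the genotype's own list (horizontal axis) for the 8 aquaporin sites (rows), in Wtap flox/flox (blue) and Wtap-HKO (orange). A missing point means that the list held no peak, and where a list held 2 peaks at a site the higher is drawn. The Aqp9 3´ site stands at the 80.0th percentile in one list and the 27.6th in the other, and the Aqp4 3´-side site at the 66.2nd and the 96.5th. The lists hold 15635 and 19185 peaks, and among peaks of sites in both lists these differences are -49.8 and 34.5 points.

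*Aqp3* (chromosome 4, 41092724 to 41098183) and *Aqp7* (chromosome 4, 41033074 to 41048237), which also encode glycerol channels, had 0 peaks by name and 0 peaks on either strand within their RefSeq spans. AQP7 is known as the channel through which adipocytes release glycerol. The same held for the remaining aquaporin genes *Mip*, *Aqp2*, *Aqp5*, *Aqp6* and *Aqp12*. Of the genes *Aqp3*, *Aqp7* and *Aqp9*, only *Aqp9* thus had a peak in these livers. Without read totals, an unmethylated transcript cannot be told apart from one too scarce for a peak to be called.

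The authors also deposited a list of 3870 peaks that differ between the genotypes, of which only names and positions were used here. It held 4 rows for aquaporin genes, 2 of them in *Aqp9*, 1 in *Aqp8* and 1 in *Aqp11*. They overlapped both *Aqp9* sites (rows from 71111762 to 71122792 and from 71163157 to 71163547), the *Aqp8* site (123462291 to 123462612) and the 3´ site of *Aqp11* (97726315 to 97727520). Thus 4 of the 8 aquaporin sites were overlapped, beside 18.2% of all 21673 sites. Since the family was chosen with the position of *Aqp9* in this list known, nothing is read from that difference. The *Aqp1* site, both *Aqp4* sites and the 5´ site of *Aqp11* had no row.

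Glycerol that enters through AQP9 is phosphorylated by glycerol kinase and then oxidised or esterified. Of 28 symbols listed for glycerol and triacylglycerol handling (*Gyk* being an older symbol of *Gk*), 22 had a site. Of their 24 sites with a peak in both genotypes, 3 were more than 2-fold lower in *Wtap*-HKO (12.5%) and 4 more than 2-fold higher (16.7%), beside 12.5% and 14.7% of all such sites. Their median log2 ratio was -0.18. Of the 39 sites of the list, 8 were in *Wtap*-HKO only, 4 of them in the first 10% of the gene span, and 7 in *Wtap* flox/flox only. The shares over all genes were 31.1% and 14.3%, and 36.8% of the placed sites in *Wtap*-HKO only lay in the first 10%. The 5 sites with the largest ratios lay in *Dgat1*, which encodes an enzyme of the final step of triacylglycerol synthesis (2.82 in *Wtap* flox/flox, 9.71 in *Wtap*-HKO, log2 ratio 1.78), in the phosphatidate phosphatase genes *Lpin2* (5.81 and 2.29, log2 ratio -1.34) and *Lpin3* (7.67 and 3.39, log2 ratio -1.18), in *Angptl4*, an inhibitor of lipoprotein lipase (2.34 and 5.27, log2 ratio 1.17), and in *Pck1*, an enzyme of gluconeogenesis (2.85 and 6.32, log2 ratio 1.15). The *Dgat1*, *Angptl4* and *Pck1* sites had midpoints in the first 10% of the gene span, and the *Lpin2* and *Lpin3* sites, like that of *Aqp9*, in the final 10%.

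The next steps of glycerol use, named after their values had been seen, gave further sites. *Gk*, which encodes glycerol kinase, had a single site, at its 5´ end, enriched 2.37-fold in *Wtap* flox/flox livers and 4.47-fold in *Wtap*-HKO livers (log2 ratio 0.92). *Gpd1*, which encodes the cytosolic glycerol-3-phosphate dehydrogenase, had a site near its 5´ end in *Wtap*-HKO only, with a fold enrichment of 21.2, a site with 4.28 and 3.97 (log2 ratio -0.11), and a site near its 3´ end in *Wtap* flox/flox only, with 1.41. *Gpd2*, its mitochondrial counterpart, had a 3´ site in *Wtap* flox/flox only (3.75).

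Bile formation also involves water channels, AQP8 among them. Of 24 genes listed for it, 21 had a site. Of their 17 sites with a peak in both genotypes, 1 was more than 2-fold lower in *Wtap*-HKO (5.88%) and 6 more than 2-fold higher (35.3%), beside 12.5% and 14.7% of all such sites, with a median log2 ratio of 0.63. Of the 1736 such sites of all genes in the first 10% of the gene span, 3.28% were lower and 35.1% higher by this rule. The *Slc22a7*, *Abcc2* and *Slc10a1* sites named next lay there, so nothing particular to bile formation is read from the shares. The largest ratios were those of the organic anion transporter *Slc22a7* (2.32 in *Wtap* flox/flox, 7.83 in *Wtap*-HKO, log2 ratio 1.75), the organic anion transporter *Slco2b1* (1.63 and 4.09, log2 ratio 1.33), the canalicular conjugate pump *Abcc2* (3.91 and 9.40, log2 ratio 1.27), the bile acid uptake transporter *Slc10a1* (2.06 and 4.70, log2 ratio 1.19) and the sterol transporter *Abcg8* (3.34 and 7.27, log2 ratio 1.12). The 1 site more than 2-fold lower was a 3´ site of the same *Abcg8* (8.37 and 3.88, log2 ratio -1.11). A 3´ site of *Slc10a1* had 11.7 and 12.3 (log2 ratio 0.07). Of the 45 sites of the list, 17 were in *Wtap*-HKO only and 11 in *Wtap* flox/flox only, beside 31.1% and 14.3% of all sites. Of the 17, 10 lay in the first 10% of the gene span, beside 36.8% of all such sites that could be placed.

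AQP9 in liver is known to be repressed by insulin, and aquaglyceroporin genes are known targets of PPAR receptors. Transcription factors and insulin signalling genes, 13 in all, each had a site. Of their 31 sites with a peak in both genotypes, 8 were more than 2-fold lower in *Wtap*-HKO (25.8%) and 4 more than 2-fold higher (12.9%), beside the same 12.5% and 14.7%, with a median log2 ratio of -0.60. Among the 2670 sites of all genes with a *Wtap* flox/flox value of at least that of the *Aqp9* 3´ site, 26.5% were lower by this rule. The 3´ sites of *Irs1* and *Insr* named below had such values, so nothing particular to this list is read from the shares. Of the 48 sites of the list, 7 were in *Wtap*-HKO only, 6 of them in the first 10% of the gene span, and 10 in *Wtap* flox/flox only. Over all genes, 31.1% of sites were in *Wtap*-HKO only and 14.3% in *Wtap* flox/flox only. Of the former, 36.8% of those that could be placed lay in the first 10% of the span. The largest ratios were a 3´ site of the nuclear receptor gene *Pparg* (7.38 in *Wtap* flox/flox, 2.23 in *Wtap*-HKO, log2 ratio -1.73), a 3´ site of the insulin receptor substrate gene *Irs1* (13.2 and 4.31, log2 ratio -1.61), a 5´ site of the same gene (4.80 and 14.5, log2 ratio 1.59), a 3´ site of the insulin receptor gene *Insr* (14.8 and 5.79, log2 ratio -1.35) and a 5´ site of the nuclear receptor gene *Nr1i3* (4.78 and 11.7, log2 ratio 1.29). *Ppara* had 3 sites with a peak in both genotypes near its 3´ end, which went from 13.1 to 6.54, from 4.78 to 2.44 and from 4.80 to 2.72. It also had a 5´ site in *Wtap*-HKO only (3.08), as *Aqp9* did. *Foxo1* had a 3´ site that went from 22.3 to 9.66 (log2 ratio -1.21), another with 3.05 and 2.58 (log2 ratio -0.24), and a 5´ site in *Wtap*-HKO only (16.3).

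**Figure D4:**
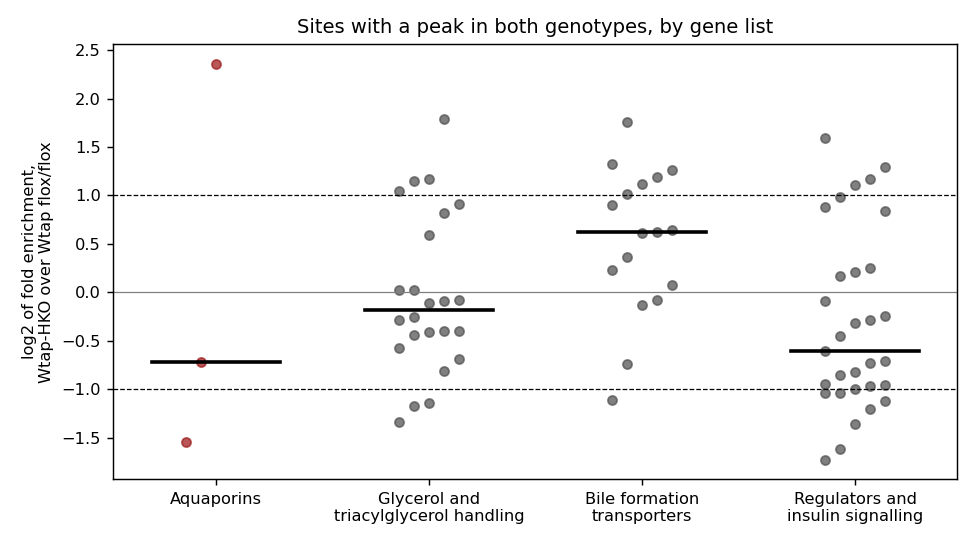
Log2 ratio of fold enrichment, Wtap-HKO over Wtap flox/flox (vertical axis), for each site with a peak in both genotypes, in the aquaporins (3 sites, red) and the lists of glycerol and triacylglycerol handling (24 sites), bile formation (17) and regulators with insulin signalling (31). Points are sites, black bars are medians and dashed lines mark a 2-fold change, and every list has sites on both sides of 0.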

How the data were processed

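Livers of 2 genotypes were measured by m6ARIP-seq in 8 libraries. The authors trimmed the 150 bp paired-end reads with fastp 0.19.11, aligned them to GRCm38 with BWA mem 0.7.12 and called peaks with exomePeak. Each genotype's deposited list gives per peak the fold enrichment, a linear ratio of IP over input whose scaling is not given in the sources used here, and the false discovery rate, deposited as a log10 score of the peak caller. The deposited list of differential peaks also holds log2 fold changes and p-values between the genotypes, which are the authors' own comparison and were not used.

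Peaks of 1 gene and strand, from either list, were joined into a site where at least 1 exonic base was shared. A site took the highest fold enrichment of its peaks, and log2 of *Wtap*-HKO over *Wtap* flox/flox was formed where both lists had a peak. No test was run, since each genotype has 1 combined value, and the unknown depth allows no interval. Positions are 1-based. Gene spans and promoter windows are those of RefSeq on GRCm38.p6, introns included, and sites were placed by the middle exonic base of their peaks, averaged where there were several. Python 3.11.15, pandas 2.3.3, numpy 2.4.6 and matplotlib 3.10.9 were used, and the site rule was checked on simulated data.

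The members and gene lists were chosen with earlier results of these data known. Named genes are the 7 members, the other aquaporins, the sites past 2-fold in each list (the 5 largest where there were more) and the 2 sites on either side of *Aqp9* by log2 ratio. *Gk*, *Gpd1*, *Gpd2*, *Ppara* and *Foxo1* were named after their values had been seen. A planned comparison of the proteins was not run, as protein sequences were not used here. Alternatives were other overlaps, thresholds, filters and scalings.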

Additional observations from a re-analysis of the deposited data

How the results depend on the processing

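With 1 combined list per genotype, leaving out a replicate was not possible. No paired analysis was possible because the lists hold no values per library. The sites of *Aqp9* and *Aqp11* have 1 peak in each list, so that the alternatives could only keep or drop their log2 ratios (-1.54 and -0.72), which says nothing about stability. That of *Aqp4* was 2.36 or, with the mean of its *Wtap* flox/flox peaks weighted by length, 2.62. Centring could not move them, as the median of all sites was 0.00. *Aqp11* had no ratio at a fold enrichment of at least 2, which its *Wtap*-HKO peak (1.99) missed, and neither *Aqp11* nor *Aqp4* had one at a false discovery rate under 1e-20. Of 45 alternative values, the 5 that moved past the limits set were shares over all sites. With a 1.5-fold change counted, 25.4% of sites were lower and 27.6% higher in *Wtap*-HKO. Sites in the *Wtap* flox/flox list only made up 15.0% when 50% of the shorter peak had to be shared and 13.5% at a false discovery rate under 1e-05, where sites in the *Wtap*-HKO list only made up 30.5%.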

Other observations

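The arrangement of *Aqp9*, with a site in the *Wtap*-HKO list only in the first 10% of the gene span and a site with a peak in both genotypes in the final 10%, was looked for in all genes after the data had been seen. It was found in 748 genes. In 116 of them (15.5%), at least 1 of the 3´ sites was more than 2-fold lower in *Wtap*-HKO, as in *Aqp9*. Among all 3728 genes with a peak in both genotypes at a site in the final 10% of the span, whether or not they had such a 5´ site, the share was 16.4% (611 genes).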
